A study of Mus musculus with 6 samples.

Results

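The genes described are Bdnf, Ntf3, Ntrk2, Ntrk3, Ngfr, Sort1 and Vgf, which encode 2 neurotrophins, 4 receptors that bind neurotrophins or their precursors, and 1 secreted protein induced by neurotrophins. They are 7 of the 23282 entries in the count tables and were taken by their symbols. RNA came from a forebrain hemisphere freed of olfactory bulb and cerebellum, of C57BL/6J male wild-type mice aged 8 to 10 weeks. The 3 NCD libraries came from mice on a normal chow diet and the 3 HFD libraries from mice given a diet with 60 kcal% fat for 10 days. Ages, diet composition and feeding time follow the study's methods. The comparison asks how a short high-fat diet changes transcript levels in the brain.

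Neurotrophins are secreted growth factors that keep neurons alive during development and adjust synapses in the adult brain. They are made as precursors. The mature forms act through Trk receptor tyrosine kinases, which signal through the Ras-MAPK, PI3K-AKT and PLC-gamma pathways, whereas the precursors bind p75NTR together with sortilin and can favour cell death or the weakening of synapses. BDNF and its receptor TrkB are best known in the forebrain for synaptic plasticity, and in the hypothalamus for the control of food intake.

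Total counts were between 6842785 and 9689372 per library. The libraries were made with the QuantSeq 3′ method, so that reads lie near the poly(A) ends of transcripts. HFD replicate 3 stood apart from the rest, with a median difference from the other libraries of 0.471 (root mean square of log2 CPM over genes) against 0.361 to 0.437 for the others. The summed level of 10 pituitary genes was 1410 CPM in HFD replicate 3 and 157 to 188 CPM in the other libraries. Of this, Chga, also one of the granins below, held 133 CPM in HFD replicate 3 and 152 to 181 CPM in the others. Gh was at 1090 CPM in HFD replicate 3 and at 1.31 to 7.66 CPM in the others. Summed, 8 midbrain genes reached 28.6 CPM in HFD replicate 3 and 49.3 to 75.7 CPM in the others. Of the 7 midbrain genes tested, 4 were lower on the HFD (edgeR, unadjusted p below 0.05). Without HFD replicate 3 this held for Slc6a4 and Tph2 of the 4, and not for Th and Foxa2. The summed level of 12 neuronal genes, 0 of which were at 0 in all libraries, was between 6790 and 7360 CPM. The summed level of 10 genes of the cerebral cortex was between 2290 and 2620 CPM, with 68.0% of it from Mef2c. That of 9 genes of the striatum was between 978 and 1080 CPM. Drd2, a defining gene of striatal neurons, had 1 count in HFD replicate 2 and 0 in the other libraries, however. The 10 hypothalamic genes summed to 164 CPM in HFD replicate 3 and to 219 to 262 CPM elsewhere. The 8 blood genes summed to 424 to 522 CPM in the NCD and 548 to 832 CPM in the HFD libraries. Of the 7 tested, 5 were higher on the HFD (edgeR, unadjusted p below 0.05). Of the 7 liver genes tested, 5 were lower by the same measure. All 10 liver genes summed to 1310 to 1570 CPM in NCD and 1370 to 1480 CPM in HFD libraries. Ttr, which also marks the choroid plexus, made up 79.0% of this sum and measured 1010 to 1260 CPM in NCD and 1060 to 1200 CPM in HFD libraries. Alb measured 3.90 to 26.9 CPM in the NCD and 1.79 to 5.46 CPM in the HFD libraries. The part of midbrain, hypothalamic, blood and liver genes in the values below was not tested. Since the libraries are of whole tissue, fewer cells of a type and less RNA per cell cannot be told apart.

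For none of the genes was a difference between the diets found that was larger than the spread of the replicates. In edgeR's quasi-likelihood test over 13771 genes, 0 of the 7 passed an adjusted p of 0.05, and over all genes tested the share that passed was 0.0%, with a smallest adjusted p of 0.519. At an unadjusted p under 0.05, 0 of the 7 were called, against 3.68% of all genes tested, 1.71% higher and 1.98% lower on the HFD. In 0 of the 7 did the diets not overlap, against 4.31% of all genes with every HFD library above every NCD library and 4.49% with every HFD library below. The log2 fold change, HFD over NCD, was below zero for 6 of the 7 and above zero for Bdnf, with a median of -0.09, while the median over all genes was -0.0025 and 50.6% of them were below zero. Without HFD replicate 3, 2 were below zero and 5 above, and again 0 had an unadjusted p under 0.05 in the same test. The labels do not say that the libraries of a diet came from separate mice. The p-values therefore weigh the diet difference against the spread between these libraries, which may be in part technical.

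**Figure D1:**
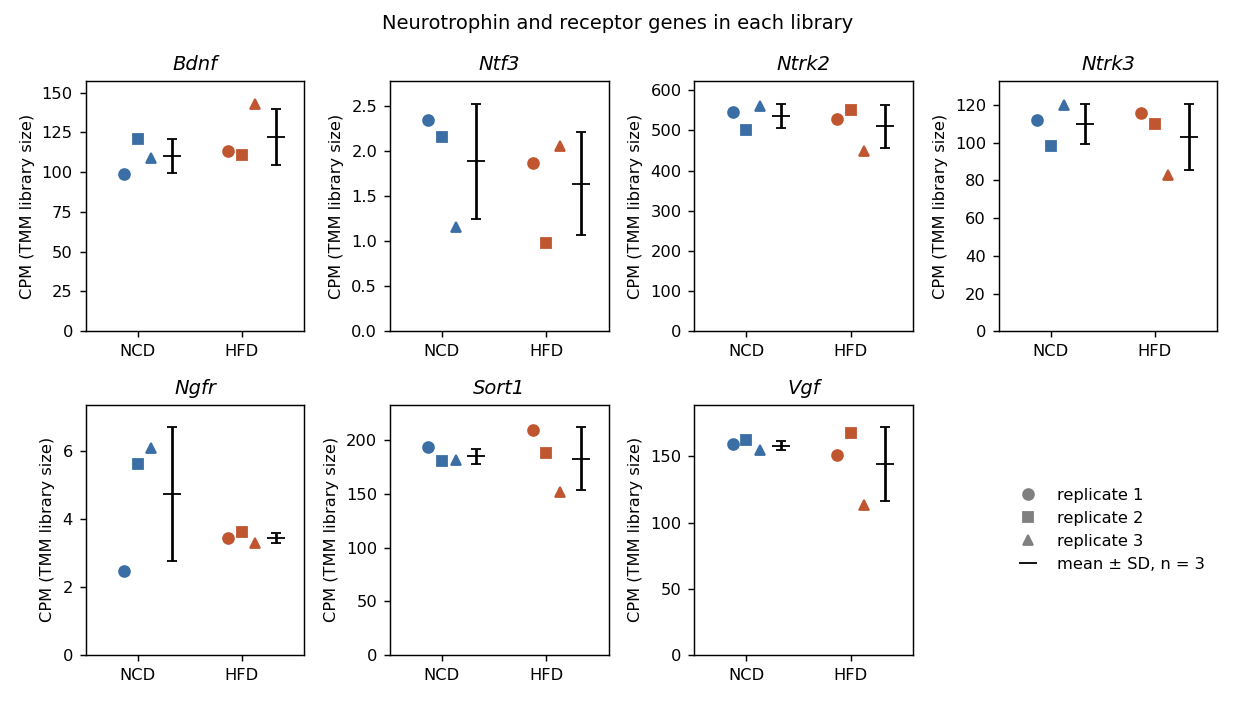
Level of each gene in CPM (counts scaled to a common TMM library size; vertical axis from 0, with its own scale for each gene) in the 3 NCD and 3 HFD libraries, with marker shapes for replicate numbers and the mean ± SD of each diet beside the points. The diets overlap in every panel, and HFD replicate 3 (triangle) has the highest Bdnf, at 143 CPM, and the lowest Ntrk2, Ntrk3, Sort1 and Vgf.

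Bdnf (brain-derived neurotrophic factor) is the most studied neurotrophin of the adult brain and the ligand of TrkB. Its gene lies on chromosome 2 from 109674700 to 109727007 on the plus strand of GRCm38 (GENCODE vM21). It has 11 transcripts with 9 different starts that share 1 annotated 3′ end, and poly(A) sites before this end were not examined. Reads at this 3′ end are counted for all of them together, so the counts hold no information on which promoter was used. The promoters matter since separate ones drive Bdnf in different cells and after activity, in part through the cyclic AMP response element (CRE) that CREB binds. The table of windows around gene starts (RefSeq, GRCm38.p6) held 11 windows for 4 of the 7 genes, of which 7 were of Bdnf. The 250 bases before each start were searched on both strands for the CRE (TGACGTCA) and for the shorter motif CGTCA, which is part of the CRE. The exact letters TGACGTCA were in 0 of the 7 Bdnf windows and in 1.55% of all 32851 windows. Other full-length forms of the CRE were not searched for, so this count does not show that a CRE is absent. The shorter motif was in 1 of the 7 and in 17.8% of all windows. The 100 bases before the start are shown for window 3, at chr2:109692336-109692435, for the position of this match, and for window 1, at chr2:109674600-109674699, as the most upstream start, both on the plus strand and with the motif in capitals.
Bdnf window 3: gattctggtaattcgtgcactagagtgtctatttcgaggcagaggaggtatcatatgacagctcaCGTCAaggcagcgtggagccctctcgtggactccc
Bdnf window 1: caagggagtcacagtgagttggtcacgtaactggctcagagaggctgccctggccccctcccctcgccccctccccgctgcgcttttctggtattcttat
The first base of the match lies 35 bases before the start. A match of these letters is a description of the window, and the 3′ counts do not bear on its use.

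Values of a diet are given in the order of its replicates 1, 2 and 3. Bdnf measured 99.0, 121 and 109 CPM under NCD and 113, 111 and 143 CPM under HFD feeding, from 783 to 1118 counts per library. HFD replicate 3 was the highest and NCD replicate 1 the lowest, and the other HFD libraries lay within the NCD range. The NCD mean was 110 ± 10.8 CPM and the HFD mean 122 ± 17.7 CPM (SD, n = 3 each). HFD over NCD, the log2 fold change of Bdnf was 0.16 (standard error 0.12, 95% interval -0.10 to 0.42), with an unadjusted p of 0.221 and an adjusted p of 0.979 in edgeR's quasi-likelihood test, and the exact permutation p (both directions) was 0.4, where 0.1 is the smallest that 3 libraries against 3 allow. Without HFD replicate 3 the log2 fold change was 0.03 (interval -0.18 to 0.24). The interval with all libraries spans a ratio of 0.931 to 1.33. An exon of Gm45346 overlaps Bdnf on the other strand, and since the use of strand in counting is not stated, reads of both cannot be told apart.

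Ntf3 (neurotrophin-3), the preferred ligand of TrkC, lies on chromosome 6 from 126101412 to 126166910 on the minus strand. It had 19, 20 and 11 counts under NCD and 13, 9 and 15 counts under HFD feeding. In CPM the NCD libraries were at 2.35, 2.16 and 1.16 and the HFD libraries at 1.87, 0.983 and 2.06. The lowest library was on the HFD and the highest on the NCD, with the rest intermixed. The coefficient of variation was 33.8% on the NCD and 35.1% on the HFD, where counting error alone gives 24.5% and 28.5%. For Ntf3 the log2 fold change was -0.22 (standard error 0.46, 95% interval -1.20 to 0.77, edgeR adjusted p of 0.979), an interval that runs from a ratio of 0.435 to 1.70. Without HFD replicate 2 it was 0.07.

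The receptors of the mature forms come next. Ntrk2 encodes TrkB, the receptor of BDNF, which neurons carry in full length and astrocytes mostly in a truncated form without the kinase domain. It spans chromosome 13 from 58806569 to 59133970 on the plus strand, and its coding transcripts have 6 different 3′ ends spread over 255 kb. Counts were given per gene, so the full-length and truncated forms were not told apart. Since the annotation used for counting is not given, it is not known which of these 3′ ends were counted.

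Ntrk2 measured 547, 502 and 560 CPM under NCD and 529, 552 and 450 CPM under HFD feeding. HFD replicate 3 was the lowest, and the other HFD libraries lay inside the NCD range. The log2 fold change was -0.07 (standard error 0.10, 95% interval -0.29 to 0.15), with an adjusted p of 0.979 in edgeR's quasi-likelihood test and an exact permutation p of 0.6. Without HFD replicate 3 it was 0.01 (interval -0.17 to 0.19). Over all 6 libraries the interval allows a ratio of 0.818 to 1.11.

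Ntrk3 encodes TrkC, the receptor of neurotrophin-3. It lies on chromosome 7 from 78175959 to 78738012 on the minus strand, and the 3′ ends of its coding transcripts, also 6, are spread over 402 kb. Ntrk3 measured 112, 98.5 and 120 CPM under NCD and 116, 110 and 83.0 CPM under HFD feeding. As for Ntrk2, the lowest value was that of HFD replicate 3 and the others were intermixed. For Ntrk3 the log2 fold change was -0.09 (standard error 0.13, 95% interval -0.37 to 0.18, edgeR adjusted p of 0.979) and 0.04 without HFD replicate 3.

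Ngfr encodes p75NTR, which binds all neurotrophins and, with sortilin, their precursors. In the adult forebrain it is best known in the cholinergic neurons of the basal forebrain. The gene lies on chromosome 11 from 95568818 to 95587735 on the minus strand, with 1 transcript. Ngfr had 20, 52 and 58 counts under NCD feeding, or 2.47, 5.61 and 6.11 CPM. Under HFD feeding it had 24, 33 and 24 counts, or 3.45, 3.61 and 3.30 CPM. NCD replicates 2 and 3 were above every HFD library, and NCD replicate 1 was below all of them. The coefficient of variation was 41.7% on the NCD, where counting error gives 15.2%, and 4.44% on the HFD, where counting error gives 19.2%. The log2 fold change of -0.46 was the furthest from zero of the 7 genes (standard error 0.35, 95% interval -1.19 to 0.27), with an unadjusted p of 0.2 and an adjusted p of 0.979 in edgeR's quasi-likelihood test. Leaving out NCD replicate 1 gave -0.76 (edgeR unadjusted p = 0.0292, adjusted p = 0.998).

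The summed level of 8 other genes of basal forebrain cholinergic neurons, 1 of them at 0 in all libraries, was 37.9, 38.0 and 36.6 CPM in NCD replicates 1, 2 and 3. NCD replicate 1, with the lowest Ngfr, had the lowest sum of 7 choroid plexus genes of all libraries, 1040 CPM. Ttr made up 96.5% of this level over all libraries, and 4 of the 7 genes were at their lowest in NCD replicate 1. Of the NCD libraries, NCD replicate 1 also had the lowest hypothalamic (219 CPM), midbrain (49.3 CPM) and thalamic (595 CPM) sums, among others. It did not have the lowest neuronal (7220 CPM) or cortical (2620 CPM) sum. The part of these sums in the Ngfr values was not tested. In HFD replicates 1, 2 and 3 the cholinergic sum was 41.9, 38.2 and 26.4 CPM, while Ngfr was nearly level there.

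Sort1 encodes sortilin, a sorting receptor of the VPS10P-domain family that pairs with p75NTR and directs BDNF into secretory vesicles. It lies on chromosome 3 from 108284082 to 108361511 on the plus strand, where an exon of Gm12523 overlaps it on the other strand. Sort1 measured 194, 181 and 182 CPM under NCD and 210, 188 and 152 CPM under HFD feeding. The HFD libraries held both the highest and the lowest value and enclosed the NCD libraries. For Sort1 the log2 fold change was -0.02 (standard error 0.12, 95% interval -0.27 to 0.23, edgeR adjusted p of 0.996). It was 0.10 without HFD replicate 3.

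Vgf encodes a granin of dense core vesicles that is cut into several peptides, some of which act on energy balance. It lies on chromosome 5 from 137026392 to 137033351 on the plus strand. Vgf measured 159, 162 and 155 CPM under NCD and 151, 168 and 113 CPM under HFD feeding. The NCD libraries lay close together, with a coefficient of variation of 2.26%, and HFD replicate 3 was at 0.715 of their mean, while the other HFD libraries lay on either side of them. For Vgf the log2 fold change was -0.14 (standard error 0.13, 95% interval -0.41 to 0.13, edgeR adjusted p of 0.979) and 0.01 without HFD replicate 3.

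**Figure D2:**
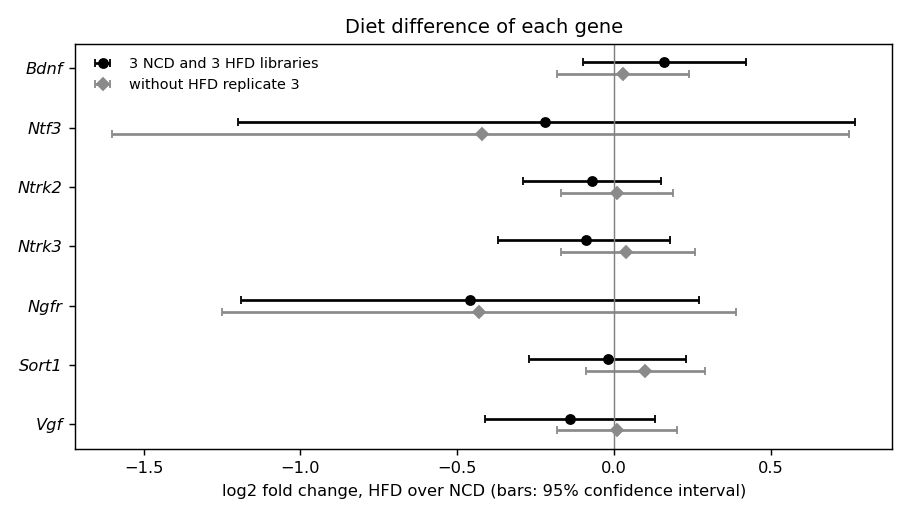
Log2 fold change of each gene, HFD over NCD (horizontal axis), with its 95% confidence interval, from all 6 libraries (black circles) and without HFD replicate 3 (grey diamonds). Every interval crosses zero, and Ntf3 and Ngfr, with under 60 counts per library, have the widest.

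Of the 7 genes, 5 had an extreme value in 1 and the same library. HFD replicate 3 was the lowest of the 6 libraries for 4 of the 7 genes (Ntrk2, Ntrk3, Sort1 and Vgf) and the highest for 1 (Bdnf). Over all genes tested it was the lowest for 27.1% and the highest for 26.2%. Its log2 difference from the median of the other 5 libraries was -0.28 for Ntrk2, -0.43 for Ntrk3, -0.30 for Sort1, -0.49 for Vgf and 0.36 for Bdnf. In the same library 7 of the 8 midbrain genes were at their lowest and 8 of the 10 pituitary genes at their highest. Its neuronal sum, 6790 CPM, was the lowest of the 6. So were its sums of astrocyte (5170 CPM), oligodendrocyte precursor (89.5 CPM), hippocampal (347 CPM) and thalamic (586 CPM) genes, among others. Its cortical (2570 CPM), striatal (1060 CPM) and oligodendrocyte (8730 CPM) sums, among others, were not. The cortical sum is mostly Mef2c, at 1750 CPM in HFD replicate 3 and 1560 to 1800 CPM in the others. Of the 10 cortical genes, 2 were at their lowest in HFD replicate 3 and 2 at their highest. The part of these differences in the values of the 5 genes was not tested.

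**Figure D3:**
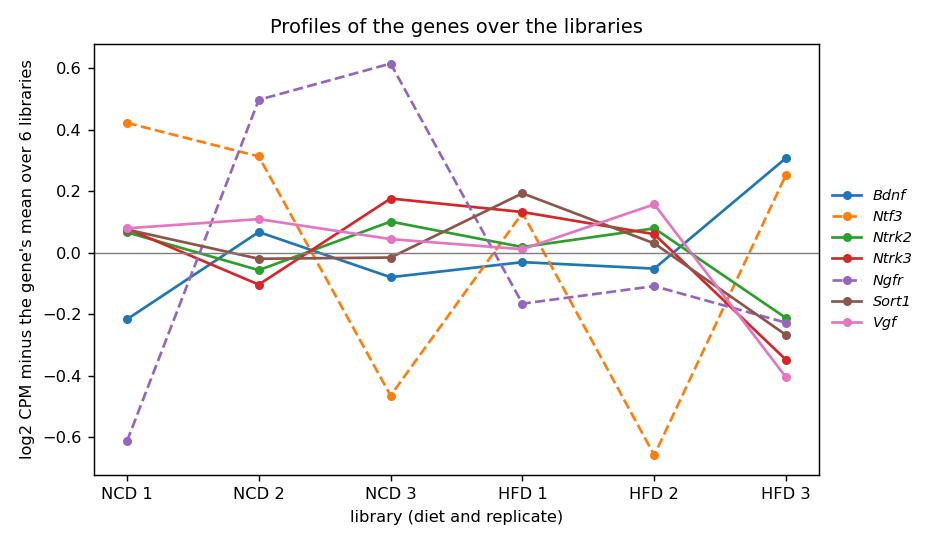
Log2 CPM of each gene minus its own mean over the 6 libraries (vertical axis), by library (horizontal axis); lines only link the points of 1 gene, and dashed lines mark the genes with under 60 counts per library. In HFD replicate 3, Ntrk2, Ntrk3, Sort1 and Vgf all lie below zero and Bdnf lies above zero.

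The likeness of 2 genes was measured as the root mean square difference between their log2 CPM profiles over the 6 libraries, each centred on its own mean. Among the 7, Ntrk2 and Ntrk3 were the most alike, with 0.0816, followed by Ntrk2 and Sort1 with 0.0925 and Ntrk3 and Sort1 with 0.0958. Bdnf and its receptor gene Ntrk2 differed by 0.264, more than the 0.161 by which Bdnf varied around its own mean, and lay on opposite sides of their means in all 6 libraries. Ntf3 and Ngfr were the least alike, with 0.695. These are descriptions over 6 libraries of which 1 stands apart.

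Among all genes tested, those nearest in profile to Bdnf were Smarce1 (0.0373), a subunit of a chromatin remodelling complex, and Nenf (0.0376), which encodes the secreted protein neudesin. Snap47 (0.0181) and Hnrnpul2 (0.0196) were nearest to Ntrk2. Kif1b (0.0210), a kinesin motor that carries cargo along axons, and Cpeb3 (0.0309), an RNA-binding protein that controls translation, were nearest to Ntrk3. Speg (0.0151) and Zmat3 (0.0239) were nearest to Sort1, and Pcdh8 (0.0272), a protocadherin of synapses, and Scube1 (0.0299) to Vgf. Of the genes with few counts, Ntf3 was nearest to Dnm3os (0.0819) and Plb1 (0.0938), and Ngfr to 1600002K03Rik (0.128) and Steap1 (0.131), at wider distances.

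Ratios of counts within a library do not depend on the scaling of libraries. Bdnf had 18.1, 24.0 and 19.5 counts for every 100 of Ntrk2 under NCD and 21.3, 20.1 and 31.7 under HFD feeding. HFD replicate 3 was above the rest, and the other HFD libraries lay within the NCD range. The NCD mean was 20.5 ± 3.10 and the HFD mean 24.4 ± 6.34 (SD, n = 3 each), with an exact permutation p of 0.5 (both directions). Without HFD replicate 3 the HFD mean was 20.7. Ntrk2 had 489, 510 and 468 counts for every 100 of Ntrk3 under NCD and 456, 500 and 542 under HFD feeding, with an exact permutation p of 0.9. These ratios are of 3′ counts and not of molecules of protein.

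Genes that work with the 7 were grouped in 11 lists of 173 genes in all, of which 159 were tested. In these, 0 passed an adjusted p of 0.05 in edgeR's quasi-likelihood test, and 4 were higher and 3 lower on the HFD at an unadjusted p under 0.05, where 1.71% and 1.98% of all genes tested were. The median log2 fold change was -0.03, with 71 genes above zero and 88 below. Without HFD replicate 3, 6 were higher and 0 lower at an unadjusted p under 0.05, where 1.29% and 1.89% of the 14159 genes tested then were. Every gene named below had an adjusted p of 0.979 or more with all libraries.

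**Figure D4:**
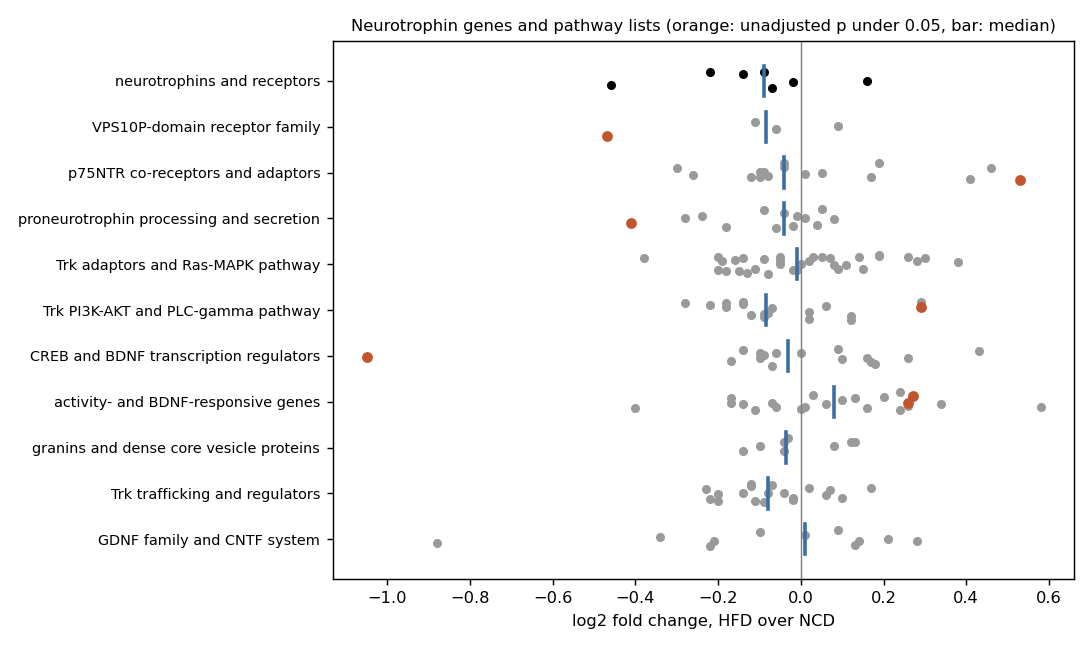
Log2 fold change, HFD over NCD (horizontal axis), of the 7 genes (black) and of the genes of the 10 pathway lists with more than 1 gene tested (grey; orange where the unadjusted p of edgeR's quasi-likelihood test was under 0.05), with the median of each list as a blue bar. The medians of the lists shown lie between -0.09 and 0.08, and 7 genes of the lists are orange.

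Of the other ligands, Ntf5, which encodes neurotrophin-4, had at most 1 count in a library and was not tested. The floor of 3 counts lies at 0.316 to 0.432 CPM, depending on the library, and covers counting error only.

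Sortilin's relatives of the VPS10P-domain family were tested for 4 genes, with a median log2 fold change of -0.09, 3 below zero and 1 above. Sorcs2, which binds proBDNF with p75NTR, measured 17.8, 23.0 and 25.3 CPM under NCD and 16.0, 20.7 and 10.9 CPM under HFD feeding. The diets overlapped, and HFD replicate 3 was the lowest. Sorcs2 had a log2 fold change of -0.47 ± 0.20 (SE, edgeR's quasi-likelihood test, unadjusted p = 0.0354), and of -0.26 (unadjusted p = 0.161) once that library was left out.

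The list of p75NTR co-receptors and adaptors had 16 genes tested, 7 above zero and 9 below, with a median of -0.04. Zfp110, which encodes a zinc finger protein that binds p75NTR, measured 8.39, 8.95 and 7.37 CPM under NCD and between 11.5 and 12.2 CPM under HFD feeding. All HFD libraries were above all NCD libraries. This came to a log2 difference of 0.53 ± 0.19 (SE, edgeR's quasi-likelihood test, unadjusted p = 0.0127), and leaving out HFD replicate 3 gave 0.53 again (unadjusted p = 0.0206).

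Proneurotrophin processing and secretion had 13 genes tested, 4 above zero and 9 below, with a median of -0.04. Furin, a protease that cuts proneurotrophins in the Golgi, measured 19.7, 18.7 and 22.9 CPM under NCD and 19.3, 15.1 and 11.8 CPM under HFD feeding. The diets overlapped by HFD replicate 1. Furin had a log2 fold change of -0.41 ± 0.18 (SE, edgeR's quasi-likelihood test, unadjusted p = 0.036), and of -0.26 (unadjusted p = 0.14) when HFD replicate 3 was left out. The granins and dense core vesicle proteins, the class Vgf belongs to, had 8 genes tested, from -0.14 for Chga to 0.13 for Scg5, with 0 at an unadjusted p under 0.05.

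Downstream of the Trk receptors, 33 genes of adaptors and the Ras-MAPK pathway were tested, from -0.38 for Sh2b2 to 0.38 for Shc3, with a median of -0.01 and 0 at an unadjusted p under 0.05. The PI3K-AKT and PLC-gamma list had 18 genes tested, 7 above zero and 11 below, with a median of -0.08. Trk trafficking and regulators had 19 genes tested, from -0.23 for Cbl to 0.17 for Rab5a, 14 of them below zero and 0 at an unadjusted p under 0.05.

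Among the regulators of CREB and of Bdnf transcription, 16 genes were tested, 8 above zero and 8 below. Npas4, an activity-induced factor that binds Bdnf promoters, had NCD counts of 13, 22 and 51 and HFD counts of 13, 11 and 11. NCD replicate 3 was well above the rest. Npas4 had a log2 fold change of -1.05 ± 0.47 (SE, edgeR's quasi-likelihood test, unadjusted p = 0.0399), and with 1 library left out the value ran from -1.35 to -0.40, the latter without NCD replicate 3 (unadjusted p = 0.422).

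The genes that answer to neuronal activity and BDNF had 22 members tested, 14 above zero and 8 below, with a median of 0.08. Egr3, an early growth response factor, measured 76.9, 65.3 and 60.9 CPM under NCD and 81.9, 81.1 and 81.5 CPM under HFD feeding. All HFD libraries were above all NCD libraries, with an SD of 0.415 CPM on the HFD. Egr3 had a log2 fold change of 0.27 ± 0.11 (SE, edgeR's quasi-likelihood test, unadjusted p = 0.0303), and also of 0.27 when HFD replicate 3 was left out. The largest unadjusted p with 1 library left out was 0.113. Homer1, a scaffold of synapses with an activity-induced short form, measured 136, 136 and 125 CPM under NCD and 148, 141 and 184 CPM under HFD feeding. The diets did not overlap there either. Homer1 had a log2 fold change of 0.26 ± 0.12 (SE, same test, unadjusted p = 0.0444), and of 0.13 (unadjusted p = 0.17) when HFD replicate 3 was left out.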

How the data were processed

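The authors prepared QuantSeq 3′ libraries, trimmed the reads, aligned them to mm10 with Bowtie2, counted unique and multiple alignments per gene with bedtools, and deposited raw read counts. The annotation and the use of strand are not given in the sources used here. Counts of 6 libraries were filtered with edgeR's filterByExpr (minimum count 10, minimum total 15), which left 13771 genes, and library totals were taken over these genes and normalized with TMM. Diets were compared with glmQLFTest and Benjamini-Hochberg adjustment (R 4.3.3, edgeR 4.0.16, limma 3.58.1, DESeq2 1.42.0). Standard errors are the log2 fold change over the square root of F. CPM were computed from the counts, and profiles with a prior count of 2.

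Genes and lists were chosen with earlier results of these data known. All 7 genes are named, as are list genes with an unadjusted p under 0.05, otherwise the highest and lowest of a list, and the 2 nearest genes by profile. Some genes that this rule names are not reported here. Library totals and the genes given to DESeq2 were changed after a first fit. The settings of that first fit are among the alternatives, beside other scalings, filters and tests, a fit blocked on replicate number and fits without 1 library. Positions come from GENCODE vM21 on GRCm38, the build that mm10 names.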

Additional observations from a re-analysis of the deposited data

How the results depend on the processing

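Over all genes tested, 0 were called at an adjusted p under 0.05 with edgeR's quasi-likelihood test, with 507 at an unadjusted p under 0.05. DESeq2 called 2 (375 unadjusted), and 23 were called without a count filter (902 unadjusted). Leaving out 1 library gave 0 to 3 calls, 3 of them without NCD replicate 3. With the replicate block, 0 genes were called and 371 had an unadjusted p under 0.05. Nothing in the labels or methods relates NCD and HFD libraries with the same number, so the numbers were not taken as pairs. The deviations of libraries with the same number correlated at -0.0295, 0.0515 and -0.0574, which with 3 libraries per diet says little about pairing. DESeq2 on all entries with a count called 0 (396 unadjusted), and library totals over all entries gave 0 (508 unadjusted). These last 2 alternatives were the settings of a first fit and were added after seeing the data.

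None of the 7 genes was called under any of the alternatives run, with adjusted p-values from 0.849 to 1.0. With other scalings, filters, tests or the block, 0 of their log2 fold changes changed sign. Ntf3 was not tested with at least 10 counts in every library. With 1 library left out, the log2 fold change ran from -0.48 to 0.07 for Ntf3, from -0.13 to 0.01 for Ntrk2, from -0.18 to 0.04 for Ntrk3, from -0.12 to 0.10 for Sort1 and from -0.26 to 0.01 for Vgf. The sign changed without HFD replicate 3 for Ntrk2, Ntrk3, Sort1 (0.10) and Vgf, without NCD replicate 1 for Sort1 (0.02), and without HFD replicate 2 for Ntf3. It ran from 0.03 to 0.23 for Bdnf and from -0.76 to -0.24 for Ngfr without a change of sign. The median over the 7 ran from -0.17 to 0.01, and the causes were not tested. Counts of 9 to 58 limit Ntf3 and Ngfr.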

Other observations

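Other families of growth factors were also measured. Of the 16 genes of the GDNF family and the CNTF system, 11 were tested and 0 passed an adjusted p of 0.05 in edgeR's quasi-likelihood test or an unadjusted p of 0.05. Their median log2 fold change was 0.01, with 6 above zero and 5 below. Manf, a secreted factor of the endoplasmic reticulum stress response, measured 39.7, 32.7 and 43.5 CPM under NCD and 44.8, 43.1 and 52.8 CPM under HFD feeding. The HFD over NCD log2 fold change was 0.28 ± 0.14 (SE, edgeR's quasi-likelihood test, unadjusted p = 0.0593). Its relative Cdnf had the lowest value of the list, -0.88 (standard error 0.60), at 0.219 to 1.51 CPM per library. Gdnf itself did not pass the count filter.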
